A study of Mus musculus with 203 samples.

Results

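The transcripts of 10 genes of the type 2 immune axis were followed in mouse lung. The set comprised the Th2 cytokines Il4, Il5 and Il13, the alarmins Il33 and Tslp, the receptors Il1rl1, Il4ra, Il13ra1 and Il13ra2, and the transcription factor Gata3. Members were taken by gene name, through the match of Ensembl identifiers to symbols, and all 10 were found among the 43346 genes of the table. Bulk RNA-seq libraries had been prepared from airway and parenchyma tissue, separated by dissection, of female BALB/c mice that the labels give as 18 to 20 weeks old in every group.

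At 3 weeks, mice had received house dust mite (HDM) extract, an allergen source, intranasally on 5 days per week for 3 weeks, or phosphate buffered saline (PBS). At 11 weeks, 8 exposures combined PBS or HDM, normal air (AIR) or cigarette smoke (CS), and no further treatment or dexamethasone (DEX), a glucocorticoid, in week 11. HDM is labelled as given 3 times per week in weeks 4 to 11, and smoke 2 times per day on 5 days per week for 8 weeks. The labels do not say for each 11 week group whether HDM was also given in weeks 1 to 3, nor whether mice without DEX received its vehicle. There were 11 libraries of PBS airway and 12 of PBS parenchyma at 3 weeks, and 10 in each of the other 18 groups of week, tissue and exposure.

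Type 2 immunity is set off when damaged or allergen-exposed barrier tissue releases IL-33 and TSLP, which act on group 2 innate lymphoid cells (ILC2), mast cells and Th2 cells. IL-33 is read through ST2, the product of Il1rl1, and GATA3 drives the Th2 and ILC2 programmes that make IL-4, IL-5 and IL-13. IL-4 and IL-13 signal through IL-4Rα, paired with the common gamma chain or IL-13Rα1, to STAT6, whereas IL-13Rα2 binds IL-13 with high affinity and is widely regarded as a decoy. IL-5 supports eosinophils, and IL-13 drives mucus production and airway hyperresponsiveness.

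Total counts per library ranged from 18756055 to 40240680 (median 28090612), apart from library X32 of the HDM.AIR.DEX parenchyma group at 13003087. The tissue labels were checked against marker genes. Summed CPM (counts scaled to the library total, TMM-normalised) of 4 basal epithelium markers had a median of 43.2 in airway and 2.54 in parenchyma libraries, and that of 5 smooth muscle markers 476 and 124.3. Cardiac muscle markers (5 genes) were also higher in airway libraries (median 420, up to 3545) than in parenchyma libraries (median 29.3, up to 53.2), and alveolar type II markers (7 genes) were not absent from airway libraries (median 16240, against 25284 in parenchyma). The labels do not say which airway and parenchyma library came from the same mouse. Libraries of adjacent code (3 and 4, for example) shared week and exposure and differed in tissue in all 21 such pairs at 3 weeks and all 80 at 11 weeks. Libraries entered the tests below as independent samples, and p-values measure the spread between libraries.

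Of the 10 genes, 4 reached the count floor, taken as 3 counts or fewer in a library. Il13, the mucus-inducing effector cytokine, was at or below the floor in 71.4% of all libraries, at 0 in 84 of them, and never exceeded 65 counts. Il5 was at or below it in 91 libraries (44.8%), with a highest value of 21 counts. Il13ra2 and Il4 were at or below it in 39 (19.2%) and 37 (18.2%) libraries. The median count of a group was 3 or lower in 14 of 20 groups for Il13, 7 for Il5, 3 for Il13ra2 and 2 for Il4. The remaining 6 genes never came near it, with lowest counts of 1083 for Il4ra, 978 for Il33, 818 for Il13ra1, 66 for Gata3, 35 for Il1rl1 and 10 for Tslp. Those of Il13ra1, Gata3 and Tslp were all in library X32. Per kilobase of exon, mean CPM in PBS airways at 3 weeks was 40.5 for Il13ra1, 21.1 for Il33 and 14.2 for Il4ra. On the same per-length scale it was 4.38 for Tslp, 2.81 for Gata3 and 1.57 for Il1rl1, and 0.25 or lower for Il4 (0.25), Il5 (0.205), Il13ra2 (0.200) and Il13 (0.00935). Il13ra1, Il33 and Il4ra were thus the 3 highest of the set on this scale, and Il4, Il5, Il13ra2 and Il13 the lowest.

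The 3 cytokine genes lie together on chromosome 11 (GRCm38, GENCODE M21). Il4 spans chr11:53602982-53618669 and Il13 chr11:53631324-53634702, both on the minus strand, and Il5 spans chr11:53720794-53725106 on the plus strand. The other members are scattered, with Il33 at chr19:29925114-29960718, Il1rl1 at chr1:40429570-40465415 and Il4ra at chr7:125552120-125579474 on the plus strand. Il13ra1 (chrX:36112110-36171259, plus strand) and Il13ra2 (chrX:147383476-147429192, minus strand) are X-linked, and Gata3 is at chr2:9857078-9890034 on the minus strand.

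Promoter windows (250 bases before to 50 after the start of a gene, RefSeq, GRCm38.p6) were matched for 9 of the 10 genes, in 12 windows. They are shown because the set holds both GATA3 and, downstream of 4 members, STAT6, whose binding letters can be looked for. The letters GATA, with adenine or thymine just before and adenine or guanine just after, were searched on both strands as GATA forms, and TTC followed by GAA with any 4 bases between as a STAT6-type form. A GATA form was present in 8 of the 12 windows (6 of 9 genes), against 29.8% of all 32851 windows, and a STAT6-type form in 2 windows (Il4 and Il33), against 6.95% of all windows. The windows of 6 genes, of the cytokines and of the members with the largest changes or most matches, are printed 5′ to 3′ with matched letters in capitals, as a description of these letters and not of binding.
Il4, second window, chr11:53618616-53618915, minus strand: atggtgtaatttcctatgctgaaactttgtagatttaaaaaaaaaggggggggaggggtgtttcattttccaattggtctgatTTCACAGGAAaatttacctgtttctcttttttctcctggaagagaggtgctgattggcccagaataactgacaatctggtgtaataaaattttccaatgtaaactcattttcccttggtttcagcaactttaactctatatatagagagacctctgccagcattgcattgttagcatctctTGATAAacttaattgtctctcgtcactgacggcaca
Il13, chr11:53634653-53634952, minus strand: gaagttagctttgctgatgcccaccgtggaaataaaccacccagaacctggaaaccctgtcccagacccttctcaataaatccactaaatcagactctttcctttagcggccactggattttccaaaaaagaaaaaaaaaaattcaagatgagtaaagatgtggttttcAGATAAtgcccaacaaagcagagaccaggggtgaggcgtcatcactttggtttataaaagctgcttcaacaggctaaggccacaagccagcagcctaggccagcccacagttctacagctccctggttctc
Il5, chr11:53720544-53720843, plus strand: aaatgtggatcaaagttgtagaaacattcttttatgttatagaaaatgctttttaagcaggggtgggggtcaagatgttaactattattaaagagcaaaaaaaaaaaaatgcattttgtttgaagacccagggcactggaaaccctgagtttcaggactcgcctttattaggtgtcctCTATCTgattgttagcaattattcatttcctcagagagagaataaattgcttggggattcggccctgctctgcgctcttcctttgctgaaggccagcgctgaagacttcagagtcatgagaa
Il33, chr19:29924863-29925162, plus strand: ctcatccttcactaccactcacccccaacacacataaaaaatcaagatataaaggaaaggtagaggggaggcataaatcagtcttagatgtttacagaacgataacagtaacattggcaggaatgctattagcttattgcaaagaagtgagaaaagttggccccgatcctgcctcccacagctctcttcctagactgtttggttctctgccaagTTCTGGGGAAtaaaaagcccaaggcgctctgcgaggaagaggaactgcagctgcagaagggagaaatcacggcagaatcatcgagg
Il1rl1, first window, chr1:40429320-40429619, plus strand: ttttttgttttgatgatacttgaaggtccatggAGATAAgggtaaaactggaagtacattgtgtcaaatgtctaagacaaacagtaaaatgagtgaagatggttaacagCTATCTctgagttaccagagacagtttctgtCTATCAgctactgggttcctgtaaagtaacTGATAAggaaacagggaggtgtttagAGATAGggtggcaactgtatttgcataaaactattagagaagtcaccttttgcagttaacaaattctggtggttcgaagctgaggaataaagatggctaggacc
Il13ra2, chrX:147429143-147429442, minus strand: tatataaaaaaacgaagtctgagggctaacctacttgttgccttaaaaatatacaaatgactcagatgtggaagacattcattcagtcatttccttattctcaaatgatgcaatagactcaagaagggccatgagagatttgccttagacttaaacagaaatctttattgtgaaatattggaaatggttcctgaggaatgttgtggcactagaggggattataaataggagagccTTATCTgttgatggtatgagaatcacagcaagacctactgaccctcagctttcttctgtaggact

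In these windows the GATA form lay at position -81 from the start in Il13, -72 in Il5, -15 in Il13ra2 and 15 in Il4. Il1rl1 carried 5 GATA forms in its first window, from -217 to -54. The STAT6-type form lay at -167 in Il4 and -36 in Il33. No form was found in the windows of Il4ra and Il13ra1, which says only that these letters are not there.

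After 3 weeks of HDM, the Th2 cytokine transcripts Il4 and Il13, the alarmin Il33 and the decoy receptor Il13ra2 rose in both tissues, while the alarmin Tslp and the transcription factor Gata3 fell in both. Il13 showed the largest change, from almost no counts in PBS-exposed mice. Il33 rose 2.66-fold in airway and 2.76-fold in parenchyma, whereas Tslp fell to 0.297 and 0.224 of its PBS level. The receptor Il1rl1 did not pass the test in either tissue, and Il13ra1 passed it only in parenchyma. By limma-voom with Benjamini-Hochberg adjustment over 17377 genes (Il5 fell below the expression filter), 7 of 9 members tested were called at an adjusted p under 0.05 in airway (5 higher, 2 lower), where 74.6 percent of all genes tested were called. In parenchyma 8 of 9 were called (6 higher, 2 lower), where 77.7 percent of all genes were called, so the share of members called was near that of all genes. The median log2 fold change (log2FC) over all genes was -0.07 in airway and -0.13 in parenchyma. Il13 passed the expression filter through HDM libraries alone, and Il13ra2 mainly so, which limits what their calls add. The share of all genes whose groups do not overlap is not given. Statements on overlap, here and below, therefore describe each member and do not set it apart from other genes.

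Il4, the cytokine of Th2 differentiation and IgE switching, had 0.102, 0.305 and 0.512 CPM (lowest, median and highest of 11 libraries) in PBS airways and 0.237, 1.11 and 2.10 in HDM airways. In parenchyma its CPM was 0.274, 0.548 and 0.971 with PBS and 0.422, 1.08 and 1.98 with HDM. The groups overlapped in both tissues, with 7 of 10 HDM airway libraries above every PBS airway library. The log2FC was 1.52 ± 0.37 (SE, adjusted p = 0.000324) in airway and 0.90 ± 0.33 (adjusted p = 0.0135) in parenchyma, by limma-voom. Of 8 basophil and mast cell markers, 0 were higher with HDM and 3 were lower in airway and 2 in parenchyma, while 3 of 5 eosinophil markers tested were higher in each tissue. Of all genes, 34.1% were higher and 40.5% lower in airway, and 33.4% and 44.3% in parenchyma. The part of these cells in the cytokine results was not tested.

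Il13 was counted 0 to 2 times per PBS library in both tissues, with 8 of 11 airway and 10 of 12 parenchyma libraries at 0. HDM libraries held 8, 20.5 and 61 counts in airway and 8, 27.5 and 65 in parenchyma, so that no HDM library overlapped a PBS library. In limma-voom the log2FC was 4.93 ± 0.53 in airway (adjusted p = 5.31e-11) and 5.06 ± 0.50 in parenchyma (adjusted p = 4.64e-12), values that depend on how counts near 0 are handled. No PBS library reached the expression filter for Il13, so the gene was kept for this test by the HDM libraries, where it was high. Summed over libraries and scaled for depth, 260 counts against 4 gave a ratio of 75.1 in airway (95% counting interval 29 to 277.8), and 309 against 3 gave 103.96 in parenchyma (35.2 to 507).

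Il5, the eosinophil cytokine, was not among the genes that rose at 3 weeks. PBS airways held 0.0924, 0.285 and 0.641 CPM and HDM airways 0, 0.192 and 0.44, with means of 0.316 ± 0.161 (SD, n = 11) and 0.187 ± 0.138 (n = 10). A 2-sided permutation test of 100000 resamples gave p = 0.0643 (0.129 adjusted over the 2 tissues). In parenchyma the means were 0.253 ± 0.0992 (n = 12) with PBS and 0.285 ± 0.197 (n = 10) with HDM (permutation p = 0.635). PBS airway libraries held 3 to 21 counts of Il5. Summed counts gave a ratio of 0.589 in airway (95% counting interval 0.415 to 0.828) and of 1.15 in parenchyma (0.812 to 1.64). The airway interval lay below 1 but covers counting error alone, and the permutation test over libraries missed the threshold.

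**Figure D1:**
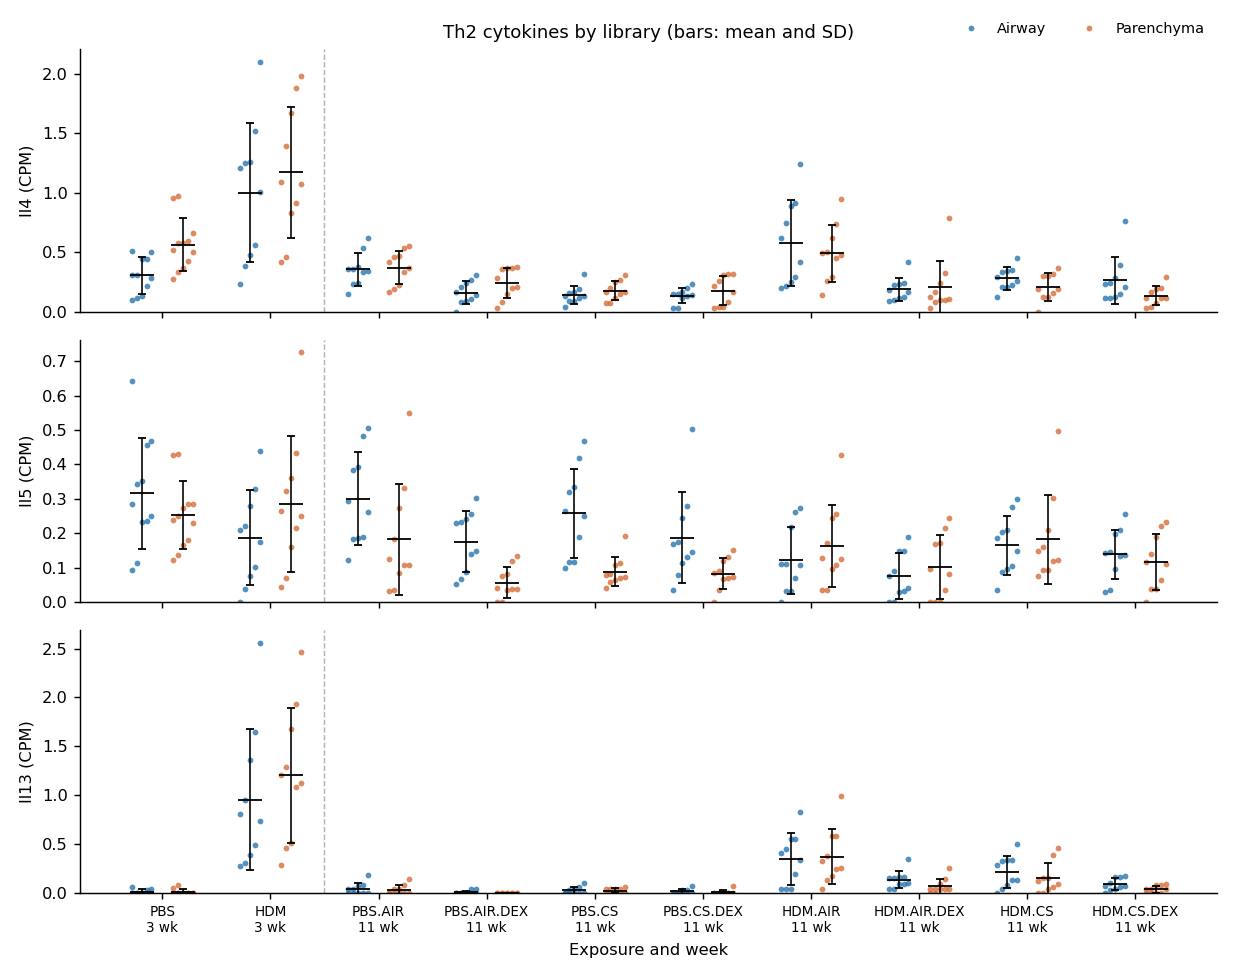
Th2 cytokine transcripts by library. Each point is the TMM-normalised CPM (y axis) of Il4, Il5 or Il13 in a library, by exposure and week (x axis) and tissue (colour), with the group mean and SD as bars. Il13 stood highest with HDM at 3 weeks, with means of 0.951 in airway and 1.2 in parenchyma, and Il5 did not follow it.

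Both alarmins separated the exposures without overlap, in opposite directions, a separation not set against that of all genes. Il33, the nuclear alarmin of epithelial and stromal cells, had 50.01, 58.3 and 73.1 CPM in PBS airways against 121.1, 145.9 and 266 in HDM airways. In parenchyma its CPM was 49.4, 67.8 and 96.3 with PBS and 139.1, 203.2 and 313 with HDM. Every HDM library lay above every PBS library in each tissue, with log2FC of 1.41 ± 0.13 in airway (limma-voom adjusted p = 5.17e-13) and 1.46 ± 0.13 in parenchyma (adjusted p = 6.85e-14). Tslp, an epithelial cytokine that primes dendritic cells and ILC2, had 4.12, 6.19 and 8.53 CPM in PBS airways against 1.08, 1.74 and 2.17 in HDM airways. For parenchyma the values were 6.18, 8.44 and 10.3 with PBS and 1.12, 2.19 and 2.65 with HDM. Every HDM library lay below every PBS library, with log2FC of -1.75 ± 0.15 in airway (adjusted p = 8.22e-14) and -2.16 ± 0.14 in parenchyma (adjusted p = 4.02e-17). Summed alveolar type I markers (5 genes), of the lining cells of the alveolus, moved alongside, with medians of 2729 with PBS and 1065 with HDM in airway and 4509 and 1955 in parenchyma, and club cell markers (4 genes) went from 62330 to 22547 and from 31124 to 13665. Their part in the Tslp result was not tested, and in bulk tissue fewer cells of a type and less RNA per cell cannot be told apart.

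**Figure D2:**
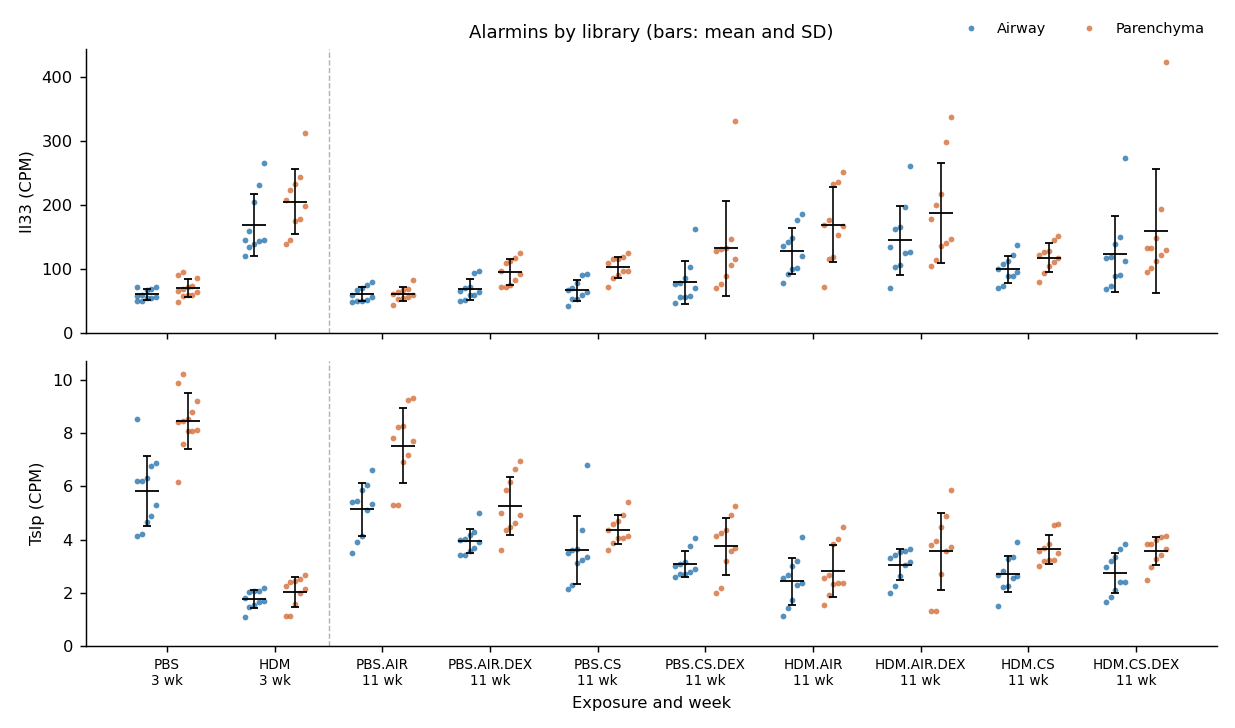
Alarmin transcripts by library. Each point is the TMM-normalised CPM (y axis) of Il33 or Tslp in a library, by exposure and week (x axis) and tissue (colour), with the group mean and SD as bars. At 3 weeks HDM libraries lay above PBS libraries for Il33 and below them for Tslp, with no overlap in either tissue.

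Among the receptors, Il13ra1 was called higher with HDM only in parenchyma, and Il13ra2 in both tissues. Il13ra1, the signalling IL-13 receptor chain, had 66.9, 83.9 and 94.9 CPM in PBS parenchyma and 127.2, 140.8 and 168.97 in HDM parenchyma, with no overlap. Its airway values were already in that range with PBS (120.8, 144.3 and 183.2), and were 119.9, 141.4 and 189.7 with HDM. The log2FC was 0.72 ± 0.08 in parenchyma (limma-voom adjusted p = 2.13e-11) and -0.10 ± 0.08 in airway (95% interval -0.26 to 0.06, adjusted p = 0.267). Il13ra2 had 0, 0.0746 and 0.214 CPM in PBS parenchyma and 0.633, 2.70 and 10.1 in HDM parenchyma, again without overlap. In airway it had 0, 0.0407 and 2.87 CPM with PBS and 0.677, 2.55 and 9.44 with HDM. The groups overlapped there through PBS libraries X81 and X161, which held 94 and 36 Il13ra2 counts. X81 also had the highest cardiac muscle marker sum of the PBS airway group (3489 CPM). The overlap remained without X81, since X161 lay above HDM libraries X63 and X183 in CPM. Log2FC was 4.83 ± 0.87 in parenchyma (adjusted p = 3.7e-06) and 3.99 ± 0.76 in airway (adjusted p = 1.24e-05). The parenchyma value rests on 27 PBS counts in all, and its size depends on how counts near 0 are handled. The airway value was 2.78 by edgeR, 4.45 without library X81 and 4.64 without the PBS and HDM airway libraries of highest cardiac marker level. Summed counts gave ratios of 33.5 (95% counting interval 22.8 to 51.1) in parenchyma and 6.60 (5.58 to 7.85) in airway. Without X81, a choice made after seeing the data, the airway ratio was 14.2 (11.1 to 18.5).

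Il4ra, the chain shared by the IL-4 and IL-13 receptors, had 97.1, 119.9 and 144.4 CPM in PBS parenchyma and 165.9, 186.1 and 234 in HDM parenchyma, without overlap. Airway values were 67.1, 83.8 and 111.2 with PBS and 102.5, 148.8 and 188.997 with HDM. It rose by 0.76 ± 0.10 on the log2 scale in airway (limma-voom adjusted p = 7.97e-09) and by 0.59 ± 0.10 in parenchyma (adjusted p = 1.14e-06). Il1rl1, which encodes membrane and soluble ST2 that gene counts cannot separate, had a median of 9.44 CPM with PBS and 11.1 with HDM in airway, and 7.23 and 8.23 in parenchyma. Its log2FC was -0.16 ± 0.18 (95% interval -0.52 to 0.20, adjusted p = 0.425) and -0.01 ± 0.22 (-0.44 to 0.43, adjusted p = 0.97).

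Gata3, the master regulator of Th2 cells and ILC2 that is also expressed outside lymphocytes, had 8.38, 9.06 and 19.6 CPM in PBS airways and 3.24, 5.05 and 5.84 in HDM airways. In parenchyma the values were 8.24, 15.2 and 30.6 with PBS and 4.4, 5.69 and 7.36 with HDM. No HDM library reached the lowest PBS library in either tissue, and the log2FC was -1.20 ± 0.19 in airway (limma-voom adjusted p = 4.73e-07) and -1.40 ± 0.18 in parenchyma (adjusted p = 5.67e-09). The summed level of 8 T cell markers (Cd3d, Cd3e, Cd3g, Cd4, Trac, Trbc2, Cd28 and Cd5) went the other way, from a median of 92.6 CPM with PBS to 282 with HDM in airway and from 108.8 to 336 in parenchyma, and all 8 were called higher in each tissue. Of 6 ILC2 and Th2 associated genes, 2 were higher and 2 lower in airway and 2 higher and 1 lower in parenchyma. The shares of all genes were 34.1% higher and 40.5% lower in airway, and 33.4% and 44.3% in parenchyma. Icos, a costimulatory receptor of activated T cells and ILC2, rose by 2.23 in airway and 2.91 in parenchyma on the log2 scale, and Klrg1, a marker of mature ILC2, fell by 0.65 and 0.70. Endothelial markers (5 genes) had medians of 894 with PBS and 527 with HDM in airway and 1257 and 745 in parenchyma, and fibroblast markers (5 genes) 1144 and 525.6, and 420 and 254. Their part in the Gata3 result was not tested.

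**Figure D3:**
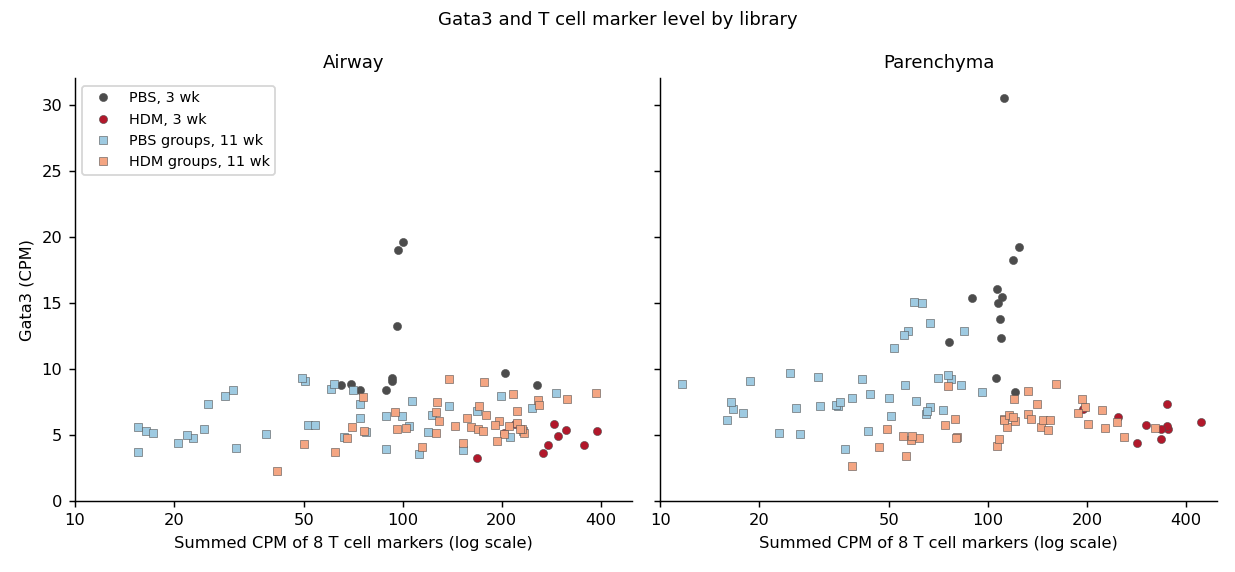
Gata3 against T cell markers by library. The x axis is the summed CPM of 8 T cell markers (log scale), the y axis the Gata3 CPM, and each point a library, coloured by HDM exposure and week. HDM libraries at 3 weeks had 167.9 to 445 CPM of T cell markers and 3.24 to 7.36 CPM of Gata3, and the highest Gata3 values (up to 30.6) were in PBS libraries at 3 weeks.

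The HDM effect at 3 weeks differed between the tissues for 1 of 9 members, where 17.3 percent of all genes were called for such a difference. That gene was Il13ra1, whose airway change less its parenchyma change was -0.82 ± 0.11 on the log2 scale (limma-voom adjusted p = 1.08e-05). For Tslp the difference was 0.41 ± 0.21 (95% interval -0.01 to 0.82, adjusted p = 0.175), and for Il4 0.62 ± 0.49 (-0.38 to 1.62, adjusted p = 0.412). Without HDM, the tissues themselves differed in 6 of 9 members (2 higher and 4 lower in airway), where 56.1 percent of all genes were called. Il13ra1 was higher in airway without overlap (log2FC 0.87 ± 0.07, adjusted p = 8.24e-12), and so was Il1rl1 with overlap (0.57 ± 0.19, adjusted p = 0.0114). Tslp (-0.55 ± 0.11, adjusted p = 2.79e-05), Il4ra (-0.51 ± 0.09, adjusted p = 1.6e-05) and Gata3 (-0.44 ± 0.15, adjusted p = 0.0109) were lower in airway. Il4 was also lower (-0.92 ± 0.39, adjusted p = 0.0419), a call that was lost with no filter on low counts (adjusted p = 0.0591) and without the 2 airway libraries of highest cardiac marker level. Il13ra2 was not called by limma-voom (0.70 ± 1.08, adjusted p = 0.599), but it was called higher in airway by edgeR (2.14, adjusted p = 0.0168), DESeq2 (2.21, 0.00453) and with runs of library codes as a term (1.14, 0.0271), and library X81 is among its PBS airway values.

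Other genes of the axis, from lists written with earlier results of these data known, are counted here against all genes tested at 3 weeks, of which 34.1% were called higher and 40.5% lower in airway and 33.4% and 44.3% in parenchyma. Of 15 IL-4 and IL-13 responsive genes, 13 rose and 1 fell in airway (median log2FC 2.54) and 14 rose and 1 fell in parenchyma (median 4.08). Clca1, a goblet cell product, had the largest rise in both (6.46 and 6.93), and Postn, the matrix protein periostin, was the gene that fell (-0.26 and -1.01). Among 9 further receptors of the axis, 7 rose and 1 fell in airway (median 1.08) and 6 rose and 1 fell in parenchyma (median 0.79), with the largest rise for Csf2rb, the beta chain of the IL-5, IL-3 and GM-CSF receptors (2.76 and 3.26). Il17rb, an IL-25 receptor chain, was the receptor that fell in airway (-0.47), and Fcer1a, a chain of the IgE receptor, the one that fell in parenchyma (-1.08). In both tissues 11 of 12 signalling molecules and transcription factors rose, led by Irf4, a transcription factor of activated lymphocytes (2.13 and 2.68), and Rora, a nuclear receptor needed for ILC2, fell (-0.63 and -0.71). Of 8 inhibitors, 6 rose and 1 fell in each tissue, with the largest rise for Socs3 in airway (1.86) and Socs1 in parenchyma (2.60), both suppressors of cytokine signalling, and a fall of Socs5 (-0.71 and -0.97). Of the 6 other ligands and cofactors only 2 could be tested, since Il9, Il25, Il31 and Il3 were too low, and of these Areg, an epithelial growth factor, rose (0.73 and 0.54). Of 4 genes next to the cytokine cluster, 2 rose in airway, and 2 rose and 1 fell in parenchyma, led by Irf1, an interferon-responsive transcription factor (1.13 and 1.32).

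By 11 weeks the same direction held for Il13, Il33 and Tslp, whereas Gata3 was lower with HDM only in parenchyma, and Il5 was lower with HDM in airway. In HDM.AIR against PBS.AIR, 6 of 10 members were called in airway (4 higher, 2 lower), where 61.1 percent of 18250 genes tested were called, and 6 of 10 in parenchyma (4 higher, 2 lower), where 59.5 percent were called. Both shares are close to that of all genes. The median log2FC over all genes was 0.00 in airway and 0.05 in parenchyma.

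Il13 had 0, 0.5 and 5 counts per PBS.AIR airway library and 1, 11.0 and 19 with HDM, and in parenchyma 0, 0 and 4 against 1, 8.5 and 31. The groups overlapped, and 7 of 10 airway and 8 of 10 parenchyma HDM libraries lay above every PBS library. Its log2FC was 2.81 ± 0.53 in airway (limma-voom adjusted p = 1.49e-06) and 3.16 ± 0.53 in parenchyma (adjusted p = 9.32e-08), and the count ratios were 9.27 (95% counting interval 4.95 to 19.2) and 12.4 (6.09 to 29.6). Here too Il13 passed the expression filter through HDM-exposed groups alone. Il5 had 0.124, 0.277 and 0.506 CPM in PBS.AIR airways and 0, 0.109 and 0.274 in HDM.AIR airways, with 7 of 10 HDM libraries below every PBS library. Its log2FC was -1.50 ± 0.41 (adjusted p = 0.000731), and 33 against 91 counts gave a ratio of 0.393 (0.256 to 0.591). In parenchyma its log2FC was 0.04 ± 0.42 (95% interval -0.79 to 0.87, adjusted p = 0.945) at 46 counts in each group. Of 7 basophil and mast cell markers tested in airway, 4 were lower with HDM and 0 higher, where 29.8% of all genes were lower and 31.3% higher. The lower markers included the mast cell proteases Mcpt4 (-3.03) and Cpa3 (-1.75), and the part of these cells in the Il5 result was not tested. For Il4 the log2FC was 0.55 ± 0.32 in airway (adjusted p = 0.126) and 0.39 ± 0.32 in parenchyma (adjusted p = 0.304). edgeR and DESeq2 placed the airway value under the threshold (adjusted p = 0.0454 and 0.0482).

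Il33 had 48.5, 58.3 and 80.9 CPM in PBS.AIR airways and 78.3, 128.9 and 185.8 in HDM.AIR airways, and 44.7, 60.4 and 83.4 against 72.1, 168.95 and 252 in parenchyma. In each tissue 9 of 10 HDM libraries lay above every PBS library, with log2FC of 1.06 ± 0.19 (limma-voom adjusted p = 5.43e-07) and 1.45 ± 0.19 (adjusted p = 4.9e-11). Tslp had 3.50, 5.38 and 6.61 CPM against 1.11, 2.45 and 4.08 in airway, and 5.30, 7.77 and 9.32 against 1.53, 2.47 and 4.49 in parenchyma, where the groups did not overlap. It fell by 1.13 ± 0.17 in airway (adjusted p = 1.9e-09) and by 1.39 ± 0.16 in parenchyma (adjusted p = 2.07e-14) on the log2 scale.

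The HDM effect again differed by tissue for Il13ra1, and at this time point also for Il13ra2 and Il4ra. Il13ra1 had 63.6, 67.4 and 77.3 CPM in PBS.AIR parenchyma and 88.2, 104.9 and 131.8 in HDM.AIR parenchyma, without overlap (log2FC 0.71 ± 0.07, limma-voom adjusted p = 1.61e-18). In airway its log2FC was -0.09 ± 0.07 (95% interval -0.23 to 0.04, adjusted p = 0.242). Il13ra2 went from 0, 0.0179 and 0.234 CPM to 0.240, 0.592 and 1.86 in parenchyma, without overlap (3.84 ± 0.65, adjusted p = 8.79e-08), with a count ratio of 12.35 (7.65 to 21.2). In all, Il13ra2 held 18 counts in PBS.AIR parenchyma. The size of its changes against that group, here and below, depends on how counts near 0 are handled. Its airway values were 0, 0.294 and 1.29 with PBS and 0.284, 0.491 and 1.73 with HDM, with log2FC 1.31 ± 0.47 (adjusted p = 0.0118), but the call was lost without library X105 (0.92, adjusted p = 0.0694), by edgeR (0.85, adjusted p = 0.0951) and by DESeq2 (0.81, adjusted p = 0.117). Il4ra rose in airway (0.43 ± 0.11, adjusted p = 0.000297) and had a log2FC of -0.02 ± 0.11 in parenchyma (adjusted p = 0.874). Il1rl1 had log2FC of -0.08 ± 0.15 in airway and 0.03 ± 0.17 in parenchyma. Gata3 went from 6.80, 12.7 and 15.1 CPM to 4.80, 6.07 and 8.86 in parenchyma (-0.73 ± 0.13, adjusted p = 1.82e-07), with 6 of 10 HDM libraries below every PBS library. In airway it had a median of 7.31 with PBS and 7.43 with HDM (0.01 ± 0.13, 95% interval -0.25 to 0.27, adjusted p = 0.972). T cell markers were higher with HDM in both tissues, from a median of 73.6 to 225 CPM in airway and from 64.1 to 212 in parenchyma, with 8 of 8 called.

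The HDM effect in airway less that in parenchyma was called for 5 of 10 members at 11 weeks (2 higher, 3 lower), where 27.6 percent of all genes were called. The difference was -0.80 ± 0.10 for Il13ra1 (limma-voom adjusted p = 6.97e-11), -2.53 ± 0.80 for Il13ra2 (adjusted p = 0.0114), 0.74 ± 0.18 for Gata3 (adjusted p = 0.00105) and 0.45 ± 0.15 for Il4ra (adjusted p = 0.0204). For Il5 it was -1.54 ± 0.59 (adjusted p = 0.038), which missed the threshold by edgeR (0.113), DESeq2 (0.0976), with no filter (0.108) and with runs of library codes as a term (0.0507). Il13, Il33 and Tslp, at -0.35 ± 0.75, -0.39 ± 0.27 and 0.26 ± 0.23, were not called.

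Compared between the time points in a fit of all libraries, the HDM effect at 11 weeks less that at 3 weeks was called for 4 of 10 members in airway (1 higher, 3 lower), where 28.4 percent of all genes were called, and for 4 of 10 in parenchyma (2 higher, 2 lower), where 42.4 percent were called. Il13 was induced less at 11 weeks in both tissues, with differences of -2.17 ± 0.75 in airway (limma-voom adjusted p = 0.0195) and -2.02 ± 0.74 in parenchyma (adjusted p = 0.0194). Il4ra was also induced less in both (-0.39 ± 0.15, adjusted p = 0.0377, and -0.73 ± 0.15, adjusted p = 2.44e-05), but the airway call was lost in a fit of the same tissue only (adjusted p = 0.115). Gata3 was lowered less, by 1.15 ± 0.21 in airway (adjusted p = 4.77e-06) and 0.54 ± 0.20 in parenchyma (adjusted p = 0.0212), and Tslp was lowered less in parenchyma (0.64 ± 0.23, adjusted p = 0.0145). In airway the Tslp difference was 0.56 ± 0.24 (adjusted p = 0.0605), and it was called by edgeR (0.65, adjusted p = 0.0198) and DESeq2 (0.63, 0.0178). Il13ra2 was induced less in airway (-2.73 ± 0.78, adjusted p = 0.00411), while in parenchyma its difference was -1.11 ± 0.97 (adjusted p = 0.372). Il33 did not pass the test in airway (-0.41 ± 0.26, adjusted p = 0.232) or parenchyma (-0.14 ± 0.26, adjusted p = 0.689). HDM schedule, time since the first exposure and time point cannot be told apart here.

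Of all genes at 11 weeks, 31.3% were called higher with HDM and 29.8% lower in airway, and 32.6% and 26.9% in parenchyma. In the lists, 11 of 15 IL-4 and IL-13 responsive genes rose and 1 fell in airway (median log2FC 2.10), and 13 rose and 1 fell in parenchyma (median 2.96). The largest rise was that of Slc26a4, the anion exchanger pendrin, in airway (4.49) and of Clca1 in parenchyma (4.41). The gene that fell was Ccl24, an eosinophil chemoattractant, in airway (-1.55) and Postn in parenchyma (-0.61). Of 9 receptors 6 rose in airway and 7 in parenchyma, with Csf2rb first in both (2.61 and 2.35), and none fell. Signalling genes rose in 11 of 12 cases in airway and in 8 in parenchyma, with Irf4 first (2.77 and 2.89), and Rora fell in both (-0.34 and -0.53). Of 8 inhibitors 5 rose in each tissue, with Socs1 first (1.67 and 1.87), and 1 fell in airway and 2 in parenchyma, with Socs5 the larger fall (-0.35 and -0.58). Both ligands tested, Areg (1.34 and 0.69) and Csf2 (0.97 and 0.60), the gene of GM-CSF, rose. Of the 4 neighbours of the cytokine cluster, 1 rose and 1 fell in each tissue, with Irf1 rising (0.62 and 0.37).

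Cigarette smoke without HDM gave more calls in parenchyma than in airway, and in parenchyma it shifted Il33, Tslp, Il13ra1, Il13ra2 and Gata3 in the directions seen with HDM. Il4 went the other way and was lower with smoke in both tissues, while Il13 stayed at its floor (median 0.5 counts in PBS.CS parenchyma). In PBS.CS against PBS.AIR, 2 of 10 members were called in airway (both lower), where 13.7 percent of all genes were called, and 6 of 10 in parenchyma (3 higher, 3 lower), where 35.9 percent were called. T cell markers were not called in either tissue (0 of 8), and macrophage markers (6 genes) had parenchyma medians of 397 CPM with air and 991 with smoke, with 5 of 6 called higher there and 6 of 6 in airway. Of 5 endothelial markers 2 were lower with smoke in parenchyma, and the part of these cells in the results was not tested. The difference between the tissues in the smoke effect was not tested.

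In parenchyma Il33 had 72.2, 103.4 and 125.4 CPM with smoke, and 9 of 10 libraries lay above every air library (log2FC 0.75 ± 0.19, limma-voom adjusted p = 0.00081). Tslp had 3.60, 4.25 and 5.41 CPM, with 9 of 10 libraries below every air library (-0.75 ± 0.14, adjusted p = 6.98e-06). Il13ra1 had 82.96, 93.6 and 99.5 CPM with no overlap (0.44 ± 0.07, adjusted p = 1.98e-08). For all 3 genes the median with smoke lay between those of PBS.AIR and HDM.AIR. Il13ra2 had 0.0986, 0.395 and 0.651 CPM (2.81 ± 0.68, adjusted p = 0.000442), and Gata3 had 6.40, 7.79 and 9.24 (-0.51 ± 0.12, adjusted p = 0.00044). Il4 had 0.0738, 0.166 and 0.312 CPM against 0.166, 0.393 and 0.550 with air (-0.97 ± 0.37, adjusted p = 0.032, but 0.0593 with no filter on low counts). In airway Il4 fell by 1.26 ± 0.38 (adjusted p = 0.0127), with 6 of 10 smoke libraries below every air library, and Tslp by 0.58 ± 0.15 (adjusted p = 0.00363). The airway log2FC of Il33 was 0.12 ± 0.19 (95% interval -0.26 to 0.49, adjusted p = 0.766).

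Added to HDM, smoke lowered Il4, Il13 and Il1rl1 in parenchyma. In HDM.CS against HDM.AIR, 3 of 10 members were called there (all lower), where 24.1 percent of all genes were called. In airway 0 of 10 were called by limma-voom, where 16.2 percent of genes were called. Il4 was the airway member with the smallest p (log2FC -0.83 ± 0.32, adjusted p = 0.0637), the sole airway member with an unadjusted p under 0.05, and was called by edgeR and DESeq2. In parenchyma Il4 had 0.137, 0.482 and 0.951 CPM in HDM.AIR and 0, 0.19 and 0.371 in HDM.CS (-1.33 ± 0.36, adjusted p = 0.00293). Il13 had 0, 3.0 and 13 counts per HDM.CS library (-1.51 ± 0.44, adjusted p = 0.00604, but 0.0542 with no filter and 0.0748 by DESeq2). Il1rl1 had a median of 6.67 CPM in HDM.AIR and 5.02 in HDM.CS (-0.49 ± 0.18, adjusted p = 0.0325, but 0.0616 in the fit of all libraries and 0.0502 with a filter of 10 CPM). Beside these, 7 of 8 T cell markers and 4 of 6 ILC2 and Th2 associated genes were lower with smoke in HDM parenchyma, with T cell marker medians of 212 CPM in HDM.AIR and 126.4 in HDM.CS. Their part in the result was not tested. Il33 in parenchyma missed the threshold by limma-voom (-0.48 ± 0.20, adjusted p = 0.0628), but was called lower by edgeR (0.0333), DESeq2 (0.0264), with runs of library codes as a term (0.0475) and with adjacent library codes as a block (0.0466). Tslp there had 0.40 ± 0.17 (adjusted p = 0.0737), and was called higher in the fit of all libraries (0.43, adjusted p = 0.0476). The HDM effect with smoke less that with air was called for 1 of 10 members in airway (higher), where 19.1 percent of all genes were called. In parenchyma this difference was called for 5 of 10 (2 higher, 3 lower), where 36 percent were called. In parenchyma every called difference had the sign opposite to the HDM effect in air. It was -1.23 ± 0.27 for Il33 (limma-voom adjusted p = 0.000114), 1.15 ± 0.22 for Tslp (adjusted p = 9.01e-06), -0.57 ± 0.09 for Il13ra1 (adjusted p = 2.48e-07), -3.62 ± 0.81 for Il13ra2 (adjusted p = 0.000117) and 0.49 ± 0.18 for Gata3 (adjusted p = 0.0289, but 0.0572 with no filter). Il33 makes this concrete, with parenchyma medians of 60.4 CPM in PBS.AIR, 103.4 in PBS.CS, 168.95 in HDM.AIR and 119.6 in HDM.CS. Tslp was the airway gene (0.79 ± 0.24, adjusted p = 0.0105), with medians of 5.38, 3.40, 2.45 and 2.65 CPM in the same order. The contrasts share libraries of the same 4 groups. The size of the Il13ra2 difference depends on how counts near 0 are handled, since PBS.AIR parenchyma held 18 counts in all.

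Smoke alone gave 7.66% of all genes higher and 6.03% lower in airway, and 17.7% and 18.2% in parenchyma. Of the listed genes of the axis, it raised Csf2 in both tissues (log2FC 1.86 in airway and 2.11 in parenchyma). IL-4 and IL-13 responsive genes were called in both directions, with 7 of 15 higher and 3 lower in airway (median 0.24) and 7 higher and 1 lower in parenchyma (median 0.80). Slc26a4 had the largest rise in each (3.30 and 3.72), and the largest fall was that of Clca1 in airway (-3.54) and Postn in parenchyma (-0.92). Of 9 receptors, 1 rose in airway and 3 rose and 1 fell in parenchyma, with the largest rise for Csf2rb (0.95 and 1.37). Added to HDM, smoke gave 10.1% of all genes lower in airway and 14.1% in parenchyma. Among the lists it gave 5 of 12 signalling genes lower in airway and 6 in parenchyma, with the largest fall for Irf4 (-0.79 and -1.19), and 3 of 15 responsive genes lower in each tissue, with Clca1 first (-2.31 and -2.68).

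**Figure D4:**
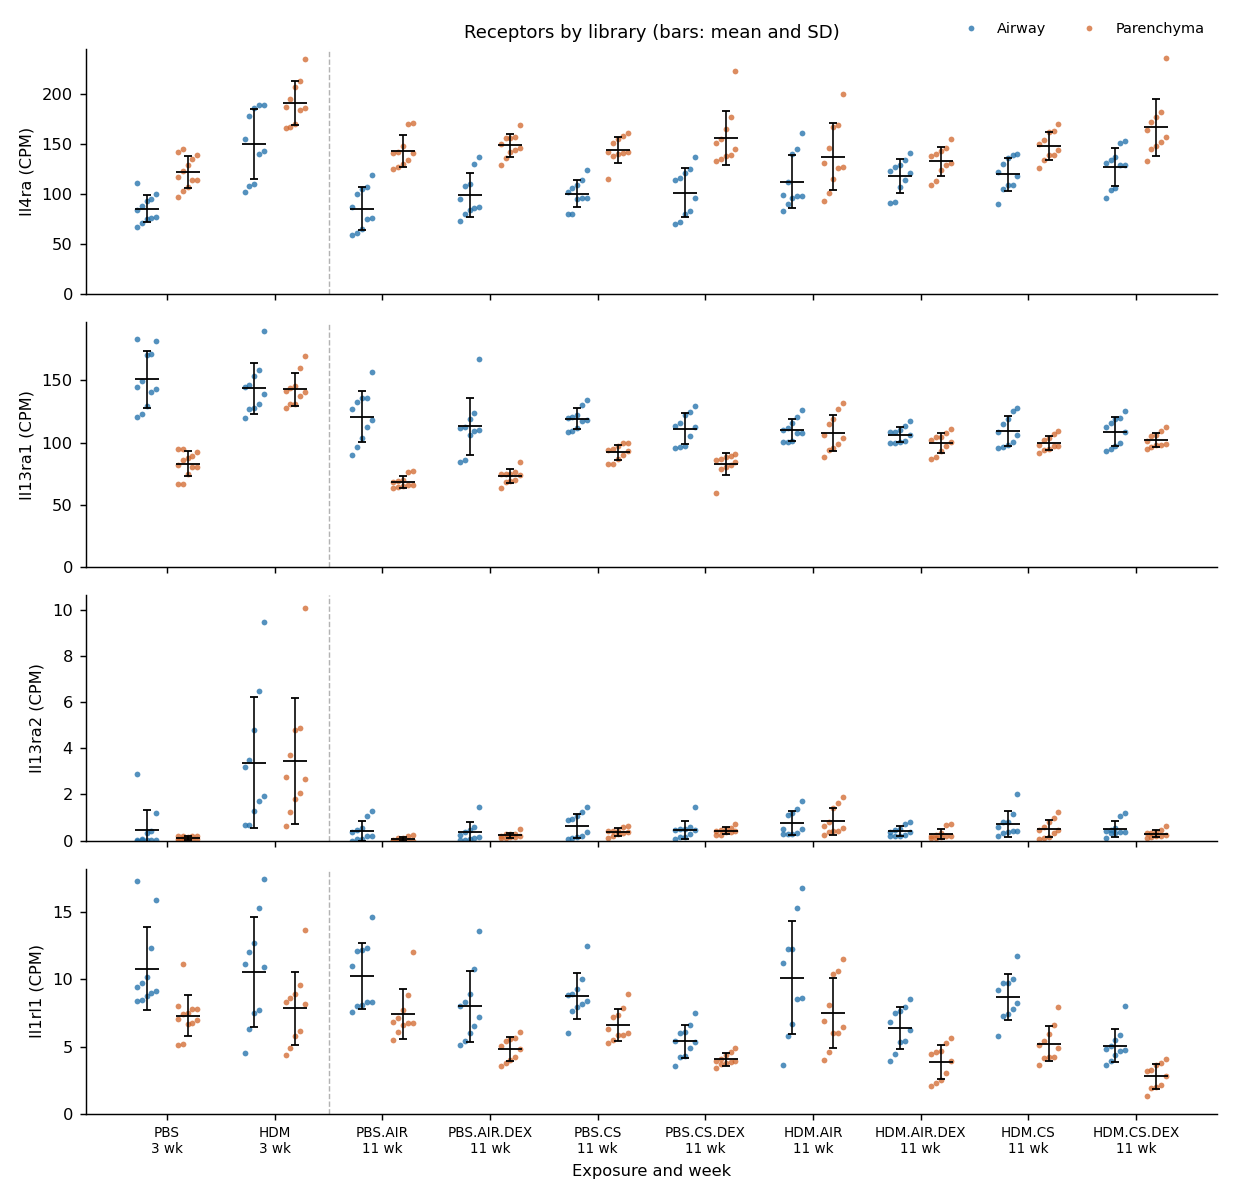
Receptor transcripts by library. Each point is the TMM-normalised CPM (y axis) of Il4ra, Il13ra1, Il13ra2 or Il1rl1 in a library, by exposure and week (x axis) and tissue (colour), with the group mean and SD as bars. Il13ra1 was lowest in PBS.AIR parenchyma (68.6 ± 4.78), and Il1rl1 was lowest in HDM.CS.DEX parenchyma (2.80 ± 0.925).

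In HDM-exposed mice given dexamethasone, several cytokine and receptor transcripts were lower, and neither alarmin passed the test. In HDM.AIR.DEX against HDM.AIR, Il4 and Il1rl1 fell in both tissues, and Il13 and Il13ra2 fell in parenchyma. By limma-voom 2 of 10 members were called in airway (both lower), where 28.6 percent of all genes were called, and 4 of 10 in parenchyma (all lower), where 28.5 percent were called. Over all genes the median log2FC was 0.01 in both tissues. T cell marker medians fell alongside from 225 to 139.4 CPM in airway and from 212 to 110.95 in parenchyma, with 7 and 8 of 8 called lower. Eosinophil markers (6 genes, 5 tested) went from 42.9 to 23.3 and from 71.02 to 36.96, with 3 and 4 called lower. Whether these transcripts fell within cells or with the number of cells was not tested.

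Il4 had 0.201, 0.517 and 1.24 CPM in HDM.AIR airways and 0.0920, 0.172 and 0.416 with DEX (log2FC -1.43 ± 0.35, limma-voom adjusted p = 0.000767), and in parenchyma the DEX libraries held 0.0356, 0.115 and 0.791 CPM (-1.57 ± 0.37, adjusted p = 0.000445). In each tissue 6 of 10 DEX libraries lay below every library without DEX. Il13 had 1, 8.5 and 31 counts in HDM.AIR parenchyma and 0, 1.0 and 6 with DEX (-2.14 ± 0.48, adjusted p = 0.000193). In airway its counts were 1, 11.0 and 19 and with DEX 1, 3.5 and 9 (-0.94 ± 0.44, adjusted p = 0.096, but 0.0205 by edgeR). Il1rl1 had 3.62, 9.92 and 16.8 CPM in HDM.AIR airways and 3.89, 6.52 and 8.53 with DEX (-0.59 ± 0.16, adjusted p = 0.00298), and in parenchyma 4.02, 6.67 and 11.5 against 2.07, 4.19 and 5.67 (-1.03 ± 0.20, adjusted p = 1.11e-05). Il13ra2 had a parenchyma median of 0.592 CPM without and 0.202 with DEX (-1.52 ± 0.48, adjusted p = 0.0102). The parenchyma calls also held without library X32, the library of lowest depth, which had the highest Il4 value of its group from 6 counts. Normalisation by TMM also placed the CPM of X32 above the plain ratio of count to library total.

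Il33 had airway medians of 128.9 CPM without and 131.02 with DEX (0.13 ± 0.20, 95% interval -0.26 to 0.52) and parenchyma medians of 168.95 and 162.7 (0.12 ± 0.20, -0.28 to 0.51). Tslp had log2FC of 0.38 ± 0.18 in airway (limma-voom adjusted p = 0.105) and 0.34 ± 0.18 in parenchyma (adjusted p = 0.148). For Il4ra the values were 0.07 ± 0.11 and -0.04 ± 0.11, and for Il13ra1 -0.07 ± 0.07 and -0.13 ± 0.07. Gata3 had -0.30 ± 0.14 in airway (adjusted p = 0.0892) and -0.12 ± 0.14 in parenchyma (adjusted p = 0.573).

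With smoke as well as HDM, DEX lowered Il1rl1 and Gata3 in both tissues. In HDM.CS.DEX against HDM.CS, 2 of 10 members were called in airway (both lower), where 9.3 percent of all genes were called, and 2 of 10 in parenchyma (both lower), where 7.86 percent were called. Il1rl1 had 5.81, 8.73 and 11.8 CPM in HDM.CS airways and 3.65, 4.75 and 7.99 with DEX (log2FC -0.81 ± 0.17, limma-voom adjusted p = 0.000224). In parenchyma it had 3.64, 5.02 and 7.94 against 1.30, 2.98 and 4.10 (-0.98 ± 0.22, adjusted p = 0.000827), and in each tissue 8 of 10 DEX libraries lay below every library without DEX. Gata3 had 5.59, 6.22 and 8.35 CPM in HDM.CS parenchyma and 2.67, 4.77 and 5.41 with DEX, without overlap (-0.57 ± 0.15, adjusted p = 0.00593). Its airway log2FC was -0.52 ± 0.14 (adjusted p = 0.00802). T cell markers moved beside both genes, from 150.7 to 72.9 CPM in airway and from 126.4 to 57.3 in parenchyma.

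In mice without HDM, DEX gave calls for 6 members in parenchyma, which included a rise of Il33. The difference between the tissues in this DEX effect was not tested. Airway means of Il33, Tslp, Il1rl1, Gata3 and Il5 moved in the same direction without a call, as in Tslp from 5.14 to 3.95 CPM. The airway mean of Il13ra2 went the other way, from 0.43 to 0.351 CPM. In PBS.AIR.DEX against PBS.AIR, 6 of 10 members were called in parenchyma (2 higher, 4 lower), where 22.6 percent of all genes were called, and 1 of 10 in airway (lower), where 14.9 percent were called. Il33 in parenchyma went from 44.7, 60.4 and 83.4 CPM to 72.2, 94.5 and 126.2 (log2FC 0.63 ± 0.19, limma-voom adjusted p = 0.00901), with 6 of 10 DEX libraries above every library without DEX. Il13ra2 went from a median of 0.5 to 5.5 counts (2.15 ± 0.71, adjusted p = 0.0169). Tslp (-0.51 ± 0.14, adjusted p = 0.00295), Il1rl1 (-0.61 ± 0.18, adjusted p = 0.00922), Gata3 (-0.38 ± 0.12, adjusted p = 0.0132) and Il5 (-1.29 ± 0.48, adjusted p = 0.038) fell, the last from a median of 3.0 counts to 1.0. In airway Il4 fell from a median of 0.351 to 0.154 CPM (-1.26 ± 0.38, adjusted p = 0.0122). T cell marker medians were 73.6 and 27.02 CPM in airway and 64.1 and 32.8 in parenchyma. Of 7 alveolar type II markers 6 were higher with DEX in each tissue, with parenchyma medians of 23668 CPM without and 36290 with DEX, and their part in the Il33 result was not tested.

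With smoke and no HDM, PBS.CS.DEX against PBS.CS gave 1 of 10 members in airway (lower), where 11.3 percent of all genes were called, and 3 of 10 in parenchyma (all lower), where 16.9 percent were called. Il1rl1 was the gene common to both. It went from 6.00, 8.65 and 12.5 CPM to 3.53, 5.38 and 7.49 in airway (log2FC -0.70 ± 0.17, limma-voom adjusted p = 0.00168) and from 5.23, 6.16 and 8.91 to 3.38, 3.91 and 4.90 in parenchyma, without overlap (-0.71 ± 0.19, adjusted p = 0.00419). Il13ra1 (-0.18 ± 0.07, adjusted p = 0.0479) and Gata3 (-0.37 ± 0.14, adjusted p = 0.045) were the other parenchyma calls, and both lay close to the threshold. Il13ra1 was lost under 6 other settings (adjusted p from 0.054 to 0.118) and Gata3 under 4 (0.06 to 0.088). In airway Gata3 missed the threshold by limma-voom (-0.39 ± 0.14, adjusted p = 0.0595), but was called lower by edgeR (0.022), DESeq2 (0.0138), with DESeq2 size factors (0.0477) and with runs of library codes as a term (0.0291). Il1rl1 was therefore called lower with DEX in 7 of the 8 DEX comparisons, the exception being airway without HDM or smoke (-0.37 ± 0.15, adjusted p = 0.0841, but 0.0391 with a filter of 10 CPM).

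The HDM effect with DEX less that without it was called for 1 of 10 members in airway (higher), where 4.62 percent of all genes were called, and for 2 of 10 in parenchyma (1 higher, 1 lower), where 12.4 percent were called. Tslp was called in both, at 0.73 ± 0.23 in airway (limma-voom adjusted p = 0.0453, but 0.0708 by edgeR, 0.0597 with no filter and 0.0532 with adjacent library codes as a block) and 0.85 ± 0.22 in parenchyma (adjusted p = 0.00599), against an HDM effect that was negative without DEX. Il13ra2 was the other parenchyma gene (-3.67 ± 0.85, adjusted p = 0.00169), with median counts of 0.5 in PBS.AIR, 17.0 in HDM.AIR, 5.5 in PBS.AIR.DEX and 5.5 in HDM.AIR.DEX. For Il1rl1 the differences were -0.22 ± 0.22 in airway and -0.43 ± 0.27 in parenchyma, and for Il4 -0.16 ± 0.52 and -0.87 ± 0.52, all with intervals that include 0.

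**Figure D5:**
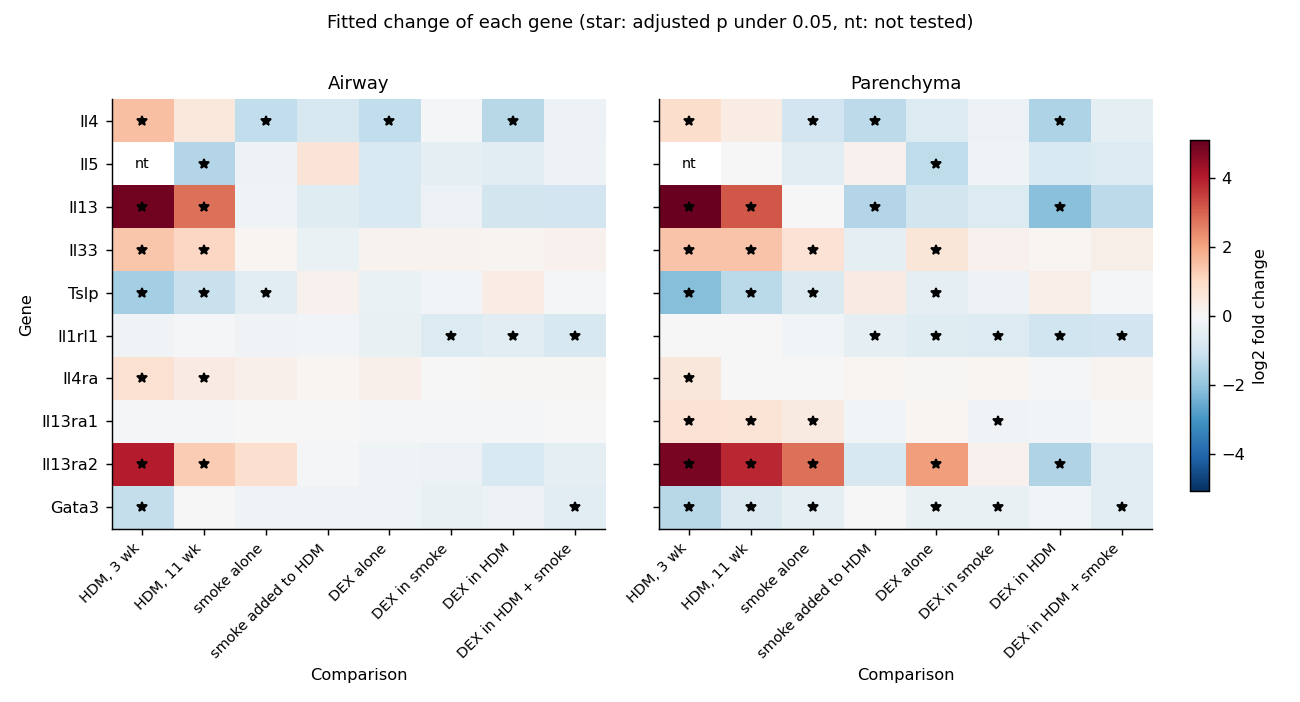
Fitted changes of the 10 members. Rows are genes, columns the 8 comparisons of each tissue, colour the limma-voom log2 fold change, and a star an adjusted p under 0.05, with nt for the gene not tested at 3 weeks. Il13 and Il13ra2 had the largest changes, up to 5.06 and 4.83 in parenchyma at 3 weeks, and Il1rl1 was called lower in 7 of the 8 DEX comparisons.

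Among all genes, DEX in HDM-exposed mice gave 12.5% higher and 16% lower in airway, and 12.2% and 16.2% in parenchyma. Of 15 IL-4 and IL-13 responsive genes, 9 fell in airway (median log2FC -0.80) and 10 in parenchyma (median -1.08), with the largest fall for Clca1 (-3.43 and -3.49) and none higher. Of 12 signalling genes 7 fell in each tissue, with Irf4 first (-1.51 and -1.38). Receptors fell in 4 of 9 cases in airway and 5 in parenchyma, with Il9r, the IL-9 receptor, first (-1.59 and -1.65). Of 8 inhibitors, 1 rose and 3 fell in airway, and 1 rose and 2 fell in parenchyma, with a rise of Socs5 (0.17 and 0.20) and the largest fall for Tbx21, the Th1 transcription factor (-0.99 and -0.89). Csf2 was the ligand that rose (0.78 and 0.55). Of the neighbours of the cytokine cluster, Sept8 rose (0.36 and 0.26), and Irf1 had the largest fall (-0.38 and -0.53), with 2 of 4 lower in airway and 1 in parenchyma.

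Ordered by mean CPM over the 20 groups, Il4 (1.17 ± 0.550 SD), Il13 (1.2 ± 0.689), Il33 (206 ± 51.4), Il4ra (190.6 ± 22.02) and Il13ra2 (3.45 ± 2.72) were highest in HDM parenchyma at 3 weeks. Tslp (8.47 ± 1.06) and Gata3 (15.5 ± 5.76) were highest in PBS parenchyma at 3 weeks, and Il5 (0.316 ± 0.161), Il1rl1 (10.8 ± 3.10) and Il13ra1 (150.5 ± 22.5) in PBS airway at 3 weeks. At the other end, Il4 (0.134), Il1rl1 (2.80) and Gata3 (4.43) were lowest in HDM.CS.DEX parenchyma, and Il5 (0.0563) and Il13 (0 counts in all 10 libraries, which does not show absence) in PBS.AIR.DEX parenchyma. Tslp was lowest in HDM airway at 3 weeks (1.75), Il33 (60.9) and Il4ra (85.2) in PBS airway at 3 weeks, and Il13ra1 (68.6) and Il13ra2 (0.0666) in PBS.AIR parenchyma. Of the 19 pairs of neighbours in each order, the gap exceeded the larger SD of the pair in 3 for Il13ra1, in 1 each for Tslp, Il13ra2 and Gata3, and in 0 for the other 6 genes, so most neighbouring groups did not differ beyond their spread.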

How the data were processed

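Total RNA had been extracted from airway and parenchyma tissue, and sequenced as Illumina libraries. The submitters' processing notes name bcl2fastq 2.20.0.422, STAR 2.5.1b, RSEM 1.2.31, kallisto 0.44.0 and the mm10 genome. The deposited table holds the authors' estimated counts per Ensembl gene, not normalised; which of these quantifiers made it, and whether strand was used, is not given in the sources used here. Of non-zero values 20.3% were not whole, and counts were rounded. All columns were mapped to a sample (0 left over). Libraries are named by the code in their label (X32 and so on). Unversioned identifiers were matched to GENCODE M21, where 42462 of 43346 had a symbol (53.3% with the same version).

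Genes were kept when at least 9 libraries reached a CPM equal to 10 counts at median depth. TMM normalisation and limma-voom (limma 3.58.1, edgeR 4.0.16, R 4.3.3) followed, with 1 coefficient per group, in separate fits of 43 libraries at 3 weeks (17377 genes), 160 at 11 weeks (18250 genes) and all libraries for the comparison of time points (18528 genes). Adjusted p-values (Benjamini-Hochberg, over all genes of a comparison) were called under 0.05. Il5 failed the filter at 3 weeks and was tested by permutation of CPM (Python 3.11.15, scipy 1.17.1). Printed CPM used TMM factors over all libraries. Count ratios carry exact 95% intervals that cover counting error only. Libraries within a group differed by more than sampling noise in all 931 pairs (lowest chi-square per degree of freedom 9.11), so none was treated as deposited again. The scripts were tested on simulated data.

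The 10 members, the marker lists and the pathway lists were chosen with earlier results of these data known. All members were named; of each pathway list the counts and the largest rise and fall called were given. For Il13, Il33, Il13ra2 and Gata3, the 3 genes most alike over 20 group means were named. The results were recomputed with the quasi-likelihood test of edgeR, with DESeq2 1.42.0, its size factors in limma-voom, no filter, a filter of 10 CPM, fits of all libraries or of the same tissue only, runs of 20 library codes as a term, and each library left out. Fits with adjacent library codes as a block (duplicateCorrelation), fits without library X32, or without the PBS and the HDM airway library of highest cardiac marker level at 3 weeks (X81 and X63), and the count ratio without X81 were chosen after seeing the data.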

Additional observations from a re-analysis of the deposited data

Results flagged for a closer look

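In 180 sets of a gene and a group, a library was picked out when its gap to the nearest other library was large for the range of its group. Chance alone gives this in about 1 of 20 sets when values vary smoothly, which counts near 0 do not. The rule picked out 16 values. Il4 and Il13, which reach the floor, gave 7 of them, and Il5 and Il13ra2, which also reach it, gave others. Il4 stood at 0.416 CPM in library X91 of HDM.AIR.DEX airway (11 counts, others up to 0.243), at 0.791 in X32 of HDM.AIR.DEX parenchyma (6 counts, others up to 0.325) and at 0.764 in X59 of HDM.CS.DEX airway (21 counts, others up to 0.395). Il13 stood at 0.179 CPM in X5 of PBS.AIR airway (5 counts), 0.340 in X191 of HDM.AIR.DEX airway (9 counts), 0.0660 in X55 of PBS.CS.DEX airway (2 counts) and 0.0713 in X116 of PBS.CS.DEX parenchyma (2 counts, others at 0). Il5 stood at 0.191 CPM in X114 of PBS.CS parenchyma (5 counts), and Il13ra2 at 0.501 in X188 of PBS.AIR.DEX parenchyma (15 counts) and 1.47 in X75 of PBS.CS.DEX airway (48 counts).

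At higher depth, Il33 reached 331 CPM in library X116 of PBS.CS.DEX parenchyma, where the others had 71.1 to 147.7, and 424 in X160 of HDM.CS.DEX parenchyma, where the others had 96.3 to 193.9. X116 was therefore highest of its group for both Il33 and Il13. Il4ra was lowest in X173 of PBS.CS parenchyma (114.9 CPM, others 137.6 to 160.4) and Il13ra1 in X176 of PBS.CS.DEX parenchyma (59.7, others 79.1 to 90.8). Gata3 was highest in X58 of HDM.CS parenchyma (8.35, others 5.59 to 6.58) and lowest in X159 of HDM.CS.DEX airway (2.25, others 3.7 to 5.6).

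A difference between groups in the same contrast was called by limma-voom for 23 values, on the log2 scale. The shares of all genes called in these contrasts, printed above with each, ran from 4.62 to 42.4 percent. Between tissues (airway less parenchyma), the HDM effect differed for Il13ra1 at 3 weeks (-0.82) and 11 weeks (-0.80), and at 11 weeks for Il5 (-1.54), Il4ra (0.45), Il13ra2 (-2.53) and Gata3 (0.74). With smoke less with air, it differed for Tslp in airway (0.79) and for Il33 (-1.23), Tslp (1.15), Il13ra1 (-0.57), Il13ra2 (-3.62) and Gata3 (0.49) in parenchyma. With dexamethasone less without, it differed for Tslp in airway (0.73) and for Tslp (0.85) and Il13ra2 (-3.67) in parenchyma. At 11 weeks less 3 weeks, it differed in airway for Il13 (-2.17), Il4ra (-0.39), Il13ra2 (-2.73) and Gata3 (1.15), and in parenchyma for Il13 (-2.02), Tslp (0.64), Il4ra (-0.73) and Gata3 (0.54).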

How the results depend on the processing

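No called member value was called in the opposite direction under another setting. Some values that were not called changed sign, such as Il1rl1 with HDM in parenchyma at 3 weeks (-0.11 to 0.166 with each library left out in turn). Across alternatives other than leaving out a library, 1988 member values kept their side of the threshold, 22 moved past it and 28 fell short of it, and the cause was not tested. With each library left out in turn, 1573 kept it and 1 fell short, Il13ra2 with HDM at 11 weeks in airway without library X105 (0.92, adjusted p = 0.0694, limma-voom). A filter of 10 CPM removed most low members, leaving 5 tested at 3 weeks and between time points and 4 at 11 weeks. Under it the members called with HDM numbered 3 in airway and 4 in parenchyma at 3 weeks, 2 in each tissue at 11 weeks, 2 for the tissue difference at 11 weeks and 2 in each tissue between time points. With smoke alone they numbered 0 in airway and 2 in parenchyma, with smoke added to HDM 0 in parenchyma, and for the HDM by smoke difference 0 in airway and 2 in parenchyma. With dexamethasone they numbered 1 in each tissue in HDM and in HDM plus smoke, 2 in parenchyma alone, and 0 in both tissues for the HDM by dexamethasone difference. The shares of all genes called under this filter and the other settings are not given. The counts of members called, here and below, show only which calls moved.

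For dexamethasone in smoke, airway calls numbered 2 by edgeR, DESeq2, DESeq2 size factors and with runs of library codes as a term, and parenchyma calls 1 by edgeR, DESeq2, with no filter and in the fit of all libraries. For smoke added to HDM in airway, edgeR and DESeq2 called 1 member. For HDM by dexamethasone in airway, edgeR, no filter and the block of adjacent codes gave 0. Near-threshold calls lost under at least 1 setting included Il4 with smoke alone in parenchyma (0.0593, no filter), Il13 with smoke added to HDM in parenchyma (0.0748, DESeq2) and Il4ra between time points in airway (0.115, same tissue only). edgeR also called Il13 lower in parenchyma with dexamethasone in HDM plus smoke (0.0353) and alone (0.0366). Other scalings moved the median of all genes by at most 0.090 (log2). The labels give no animal, so no pairing was used. Adjacent codes were taken as a replicate block after seeing the data. Their deviations from group means over all genes correlated above 0.1 in 15 of 21 pairs at 3 weeks and 73 of 80 at 11 weeks. The block changed 3 member calls, Tslp for HDM by dexamethasone in airway (0.0532), Il33 with smoke added to HDM in parenchyma (0.0466) and Il13ra1 with dexamethasone in smoke in parenchyma (0.054), and none of the tissue comparisons. Il13, Il5, Il13ra2 and Il4 are limited by depth.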

Other observations

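Per CPM of the 8 summed T cell markers, Gata3 had a median of 0.113 in PBS airways and 0.0168 in HDM airways at 3 weeks, and of 0.145 and 0.0161 in parenchyma. At 11 weeks the medians were 0.0875 in PBS.AIR and 0.0283 in HDM.AIR airways, and 0.177 and 0.0300 in parenchyma. With dexamethasone and neither HDM nor smoke they were 0.219 in airway and 0.229 in parenchyma. Gata3 is also expressed outside T cells, so the ratio is not a level per T cell.

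Over the 20 group means, which share tissue and normalisation and may share mice between tissues, the member pairs with the strongest Pearson correlations were Tslp and Il13ra2 (r = -0.896), Il13 and Il13ra2 (0.871) and Tslp and Gata3 (0.809). Il4 and Il13, neighbours on chromosome 11, had r = 0.757. Among 18528 genes, the 3 whose group means were most like those of Il13 were Cbln1 (0.988), AY761185 (0.979) and Arg1 (0.977). For Il33 they were Litaf (0.965), Clcn7 (0.959) and Ubtd1 (0.959), for Il13ra2 Gm4737 (0.944), Riox2 (0.941) and Timp1 (0.941), and for Gata3 Zfp706 (0.937), Ccdc85b (0.929) and Slc9a9 (0.929). These are descriptions over 20 points, with no test.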
